A study of Homo sapiens with 8 samples.

Results

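The proteasome genes measured by ribosome profiling in 293T cells were the subject of these comparisons. They were the gene symbols that start with PSM, then a letter from A to G and a number, together with POMP and ADRM1, with antisense genes and pseudogenes left out. Of 17179 gene symbols in the count tables, 50 matched, and 48 of these encode a subunit, an activator, an inhibitor or an assembly factor of the proteasome. The other 2, PSMC3IP (a meiotic recombination factor) and PSME3IP1 (a protein that binds the activator subunit PSME3), are no proteasome proteins and were counted apart. PSMB3 and PSMA8, subunits of the beta ring and of the testis alpha ring, were not analysed here. All libraries came from 293T, a transformed line derived from human embryonic kidney, grown in high-glucose medium with serum and lysed with cycloheximide. There were 4 groups of 2 libraries: a control for shRNA (titled Scr), a non-cleaving shRNA named shNBD1, a control for inhibitors (titled NC control) and miRNA inhibitors. The hairpin and its control are called the shRNA arm, and the inhibitors and theirs the inhibitor arm. The labels do not say what NBD1 stands for, which miRNAs were inhibited, or for how long the cells were treated. The stated question is how each treatment affects translation.

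The proteasome is the particle that degrades most ubiquitin-tagged proteins in the cytosol and nucleus. Its 20S core is a barrel of stacked rings, in which outer alpha rings gate the entry and inner beta rings carry the active sites. The 19S regulatory particle has a base, whose ATPases unfold the substrate and whose other subunits bind ubiquitin, and a lid, which holds the enzyme that removes the ubiquitin chain. Dedicated chaperones build both particles, and the transcription factor NFE2L1 raises subunit genes together when proteasome activity falls short.

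Total counts per library ranged from 11218980 to 19854218, and the 48 genes together took between 1.05% and 1.13% of them. Of the 48, 47 passed the filter on low counts and were tested, and 44 had at least 100 counts in every library. PSMB11, the thymus-specific catalytic subunit, was not tested, with 1 read in inhibitor control replicate 2 and none elsewhere. Of the 5 marker genes listed for 293T, 4 were read and NEFL was at 0, and their summed level was 55.9 to 88.7 counts per 1000000 reads (CPM) over all libraries. Values below are CPM on library sizes scaled by the trimmed mean of M values (TMM), and a gene is called changed where its Benjamini-Hochberg adjusted p from edgeR's quasi-likelihood test is below 0.05. No matched RNA libraries were used, so a footprint count can follow mRNA level, translation or both, and in bulk lysates fewer cells of a type and less RNA per cell cannot be told apart. The labels do not say whether replicates were separate cultures, and if they were not, the spread behind the p-values is technical. Values in parentheses are the log2 fold change ± SE, from 2 libraries a group, and edgeR's adjusted p. Coding lengths were not used here, so no gene's level is set against another's.

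With shNBD1, footprints of 10 of the 47 tested proteasome genes fell, and those of none rose past the threshold. The share called lower was 21.3%, beside 9.15% of all genes tested, and the share called higher was 0%, beside 9.18%. DESeq2 called 8 lower and 0 higher, beside 6.29% and 6.46% of all genes. An unadjusted p below 0.05 was found for 18 of the 47, beside 4420 of all 13306 genes tested. Over the 47 genes the median log2 fold change was -0.08, against 0.001 over all genes, with 32 below zero and 15 above. The decreases were small, with log2 fold changes from -0.24 for PSMA1 to -0.39 for POMP, and they were spread over the alpha ring, the base, the lid, the assembly factors and one activator. No member of the beta ring was among them. The summed 293T markers moved with this comparison, at 55.9 to 56.8 CPM in the shRNA control and 78.5 to 88.7 CPM with shNBD1, and were 59.8 to 66.8 CPM in the inhibitor control and 66.9 to 86.5 CPM with the inhibitors. Of these markers LIN28B (1.08 ± 0.13, adjusted p = 0.000677) and INA (0.52 ± 0.15, adjusted p = 0.0324) rose with shNBD1. The other 2 of the 4 tested markers lay below zero without passing, the lowest at a log2 fold change of -0.52. Their part in the proteasome results was not tested.

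**Figure D1:**
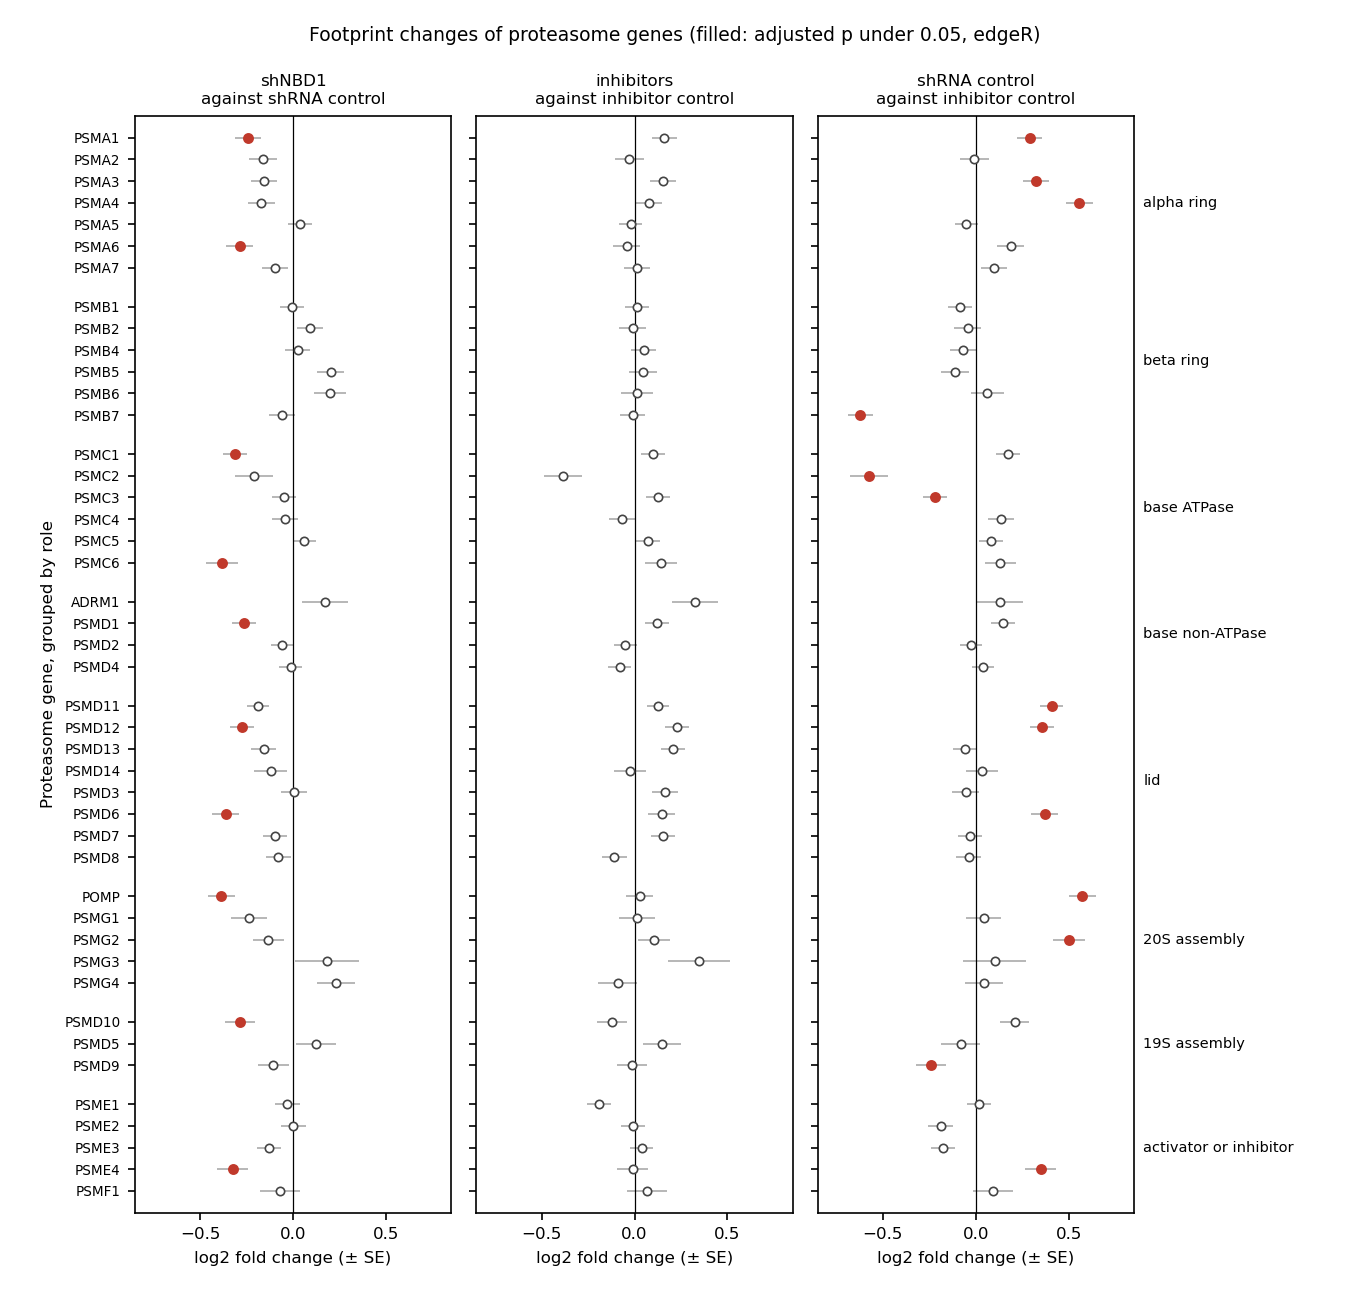
Log2 fold change (x axis, points, bars ± 1 SE) of 44 proteasome genes grouped by role (y axis) in 3 comparisons, with filled points where the edgeR adjusted p is below 0.05; the 3 inducible catalytic subunits that were tested are off this scale or too low to place and are left out. The filled points of the first panel lie below zero in every role but the beta ring, the second panel has none, and the third has filled points on both sides.

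The core's alpha ring had 2 of 7 genes lower and a median of -0.16. PSMA1 stood at 189.9 and 191 CPM in the shRNA control and 169 and 153 CPM with shNBD1 (-0.24 ± 0.07, adjusted p = 0.0334). PSMA6 stood at 80.2 and 79.3 CPM in the shRNA control and 67.6 and 63.1 CPM with shNBD1 (-0.29 ± 0.07, adjusted p = 0.0207). For both genes each shNBD1 library lay below each control library. Here and for the called genes below, this order comes from the libraries used for the call and is no further support. PSMA2, PSMA3, PSMA4 and PSMA7 had log2 fold changes from -0.17 to -0.10 and PSMA5 0.04, none past the threshold.

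The beta ring, which holds the proteolytic sites, had 0 of 6 genes called in either direction by edgeR and by DESeq2, with a median of 0.06, and 2 of the 6 had an unadjusted p below 0.05. PSMB5, the chymotrypsin-like subunit, stood at 397 and 406 CPM in the shRNA control and 467 and 456 CPM with shNBD1 (0.20 ± 0.07, adjusted p = 0.0862). PSMB6, the caspase-like subunit, stood at 368 and 371 CPM in the shRNA control and 423 and 426 CPM with shNBD1 (0.20 ± 0.09, adjusted p = 0.137). Both shNBD1 libraries lay above both controls for these genes, but the differences did not pass. PSMB7, the trypsin-like subunit, stood at 169 and 178 CPM in the shRNA control and 170.4 and 163 CPM with shNBD1, with overlapping groups (-0.06 ± 0.07, adjusted p = 0.581). The values of the remaining beta genes, PSMB1, PSMB2 and PSMB4, lay between -0.01 and 0.09. With inhibitor control replicate 1 or replicate 2 left out of the shared estimate of spread, PSMB5 and PSMB6 were called higher.

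In the base of the 19S particle, 2 of 6 ATPases and 1 of 4 other subunits fell. PSMC6 had one of the larger decreases, from 147 and 152 CPM in the shRNA control to 123 and 107 CPM with shNBD1 (-0.38 ± 0.09, adjusted p = 0.0129). PSMC1 stood at 233 and 236 CPM in the shRNA control and 196 and 182 CPM with shNBD1 (-0.31 ± 0.07, adjusted p = 0.00921). PSMD1, the large scaffold subunit of the base, stood at 257 and 250.3 CPM in the shRNA control and 217 and 206 CPM with shNBD1 (-0.26 ± 0.07, adjusted p = 0.019). The groups did not overlap for any of these. The other ATPases, PSMC2 to PSMC5, had log2 fold changes between -0.21 and 0.06, and PSMD2, the other scaffold of the base, -0.06. ADRM1, the ubiquitin receptor that holds the deubiquitinase UCHL5, stood at 283 and 298 CPM in the shRNA control and 312 and 342 CPM with shNBD1 (0.17 ± 0.13, adjusted p = 0.371), and PSMD4, the other classical receptor, had a log2 fold change of -0.01. The lid had 2 of 8 genes lower, both scaffold subunits of its horseshoe. PSMD6 stood at 177 and 169 CPM in the shRNA control and 134 and 135 CPM with shNBD1 (-0.36 ± 0.07, adjusted p = 0.00761). PSMD12 stood at 291 and 288 CPM in the shRNA control and 243 and 236 CPM with shNBD1 (-0.28 ± 0.06, adjusted p = 0.0147). For both, the lower control library lay well above the higher shNBD1 library. PSMD11, another scaffold subunit, missed the threshold (-0.19 ± 0.06, adjusted p = 0.0542), and PSMD14, the deubiquitinase of the lid, had a log2 fold change of -0.12 with an adjusted p of 0.361. PSMD3, PSMD7, PSMD8 and PSMD13 lay between -0.16 and 0.01.

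Among the 5 assembly factors of the 20S core, 1 fell. POMP, the chaperone that guides the last steps of core assembly and is degraded by the finished particle, stood at 169 and 162 CPM in the shRNA control and 132 and 121 CPM with shNBD1 (-0.39 ± 0.07, adjusted p = 0.00569). The control libraries lay well above those with the hairpin. PSMG1 and PSMG2 form one alpha-ring chaperone, and PSMG3 and PSMG4 another. PSMG1 stood at 99.8 and 99.4 CPM in the shRNA control and 83.7 and 85.2 CPM with shNBD1 (-0.24 ± 0.10, adjusted p = 0.111), and PSMG2 at 79.5 and 75.8 CPM in the shRNA control and 76.2 and 65.6 CPM with shNBD1 (-0.13 ± 0.08, adjusted p = 0.296). PSMG3 stood at 15.7 and 15.2 CPM in the shRNA control and 15.7 and 19.4 CPM with shNBD1 (0.18 ± 0.17, adjusted p = 0.493), and PSMG4 at 23.7 and 24.4 CPM in the shRNA control and 27.2 and 29.2 CPM with shNBD1 (0.23 ± 0.10, adjusted p = 0.149). PSMG1 lay below its controls and PSMG4 above them in both shNBD1 libraries, while PSMG2 and PSMG3 overlapped. Of the 3 chaperones of the 19S base, PSMD10 (gankyrin) fell, from 159 and 156 CPM in the shRNA control to 135 and 123 CPM with shNBD1 (-0.29 ± 0.08, adjusted p = 0.0314), while PSMD5 and PSMD9 had log2 fold changes of 0.12 and -0.11. Of the 5 genes that encode activators or the inhibitor PSMF1, PSME4 (PA200) was the one called lower, at 136 and 133 CPM in the shRNA control and 110.4 and 104 CPM with shNBD1 (-0.33 ± 0.08, adjusted p = 0.0228). PSME1, PSME2, PSME3 and PSMF1 lay between -0.13 and 0.00. Of the genes that matched by name alone, PSME3IP1 fell as well (-0.32 ± 0.08, adjusted p = 0.024), and PSMC3IP did not pass (-0.12 ± 0.11, adjusted p = 0.475).

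**Figure D2:**
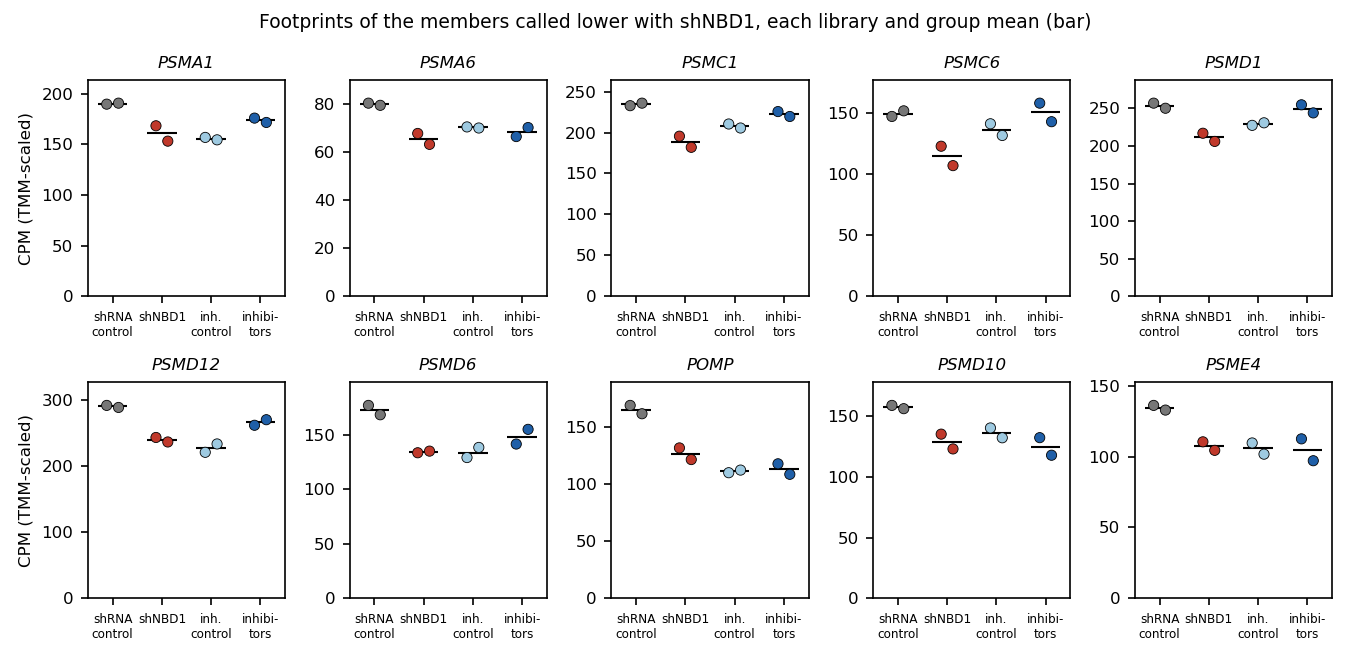
TMM-scaled CPM (y axis, from 0) of the 10 genes called lower with shNBD1 in each of the 8 libraries (points) with group means (bars), by group (x axis). In each panel both shNBD1 points lie below both shRNA control points, and in several the inhibitor control lies at or below the shNBD1 level. The genes were called in these same libraries, so the order of shNBD1 and shRNA control points is no further support.

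Summed over the genes of a role, footprints differed between the shRNA control and shNBD1 by role. The alpha ring summed to 1989 and 1995 CPM in the control and to 1861 and 1792 CPM with shNBD1, a change of -8.29% in the mean. The beta ring summed to 2439 and 2461 CPM in the control and to 2634 and 2542 CPM with shNBD1, a change of 5.64%. The lid went from 2206 and 2168 CPM to 1981 and 1997 CPM, a change of -9.05%. The ATPases summed to 1950 and 1932 CPM in the control and 1841 and 1780 CPM with shNBD1 (-6.73%), and the 20S assembly factors to 388 and 376 CPM and then 334 and 321 CPM (-14.3%). For these 5 roles the groups did not overlap. The whole 20S core, both rings together, differed by -0.606%. These sums carry no test, and a sum follows its most counted genes.

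**Figure D3:**
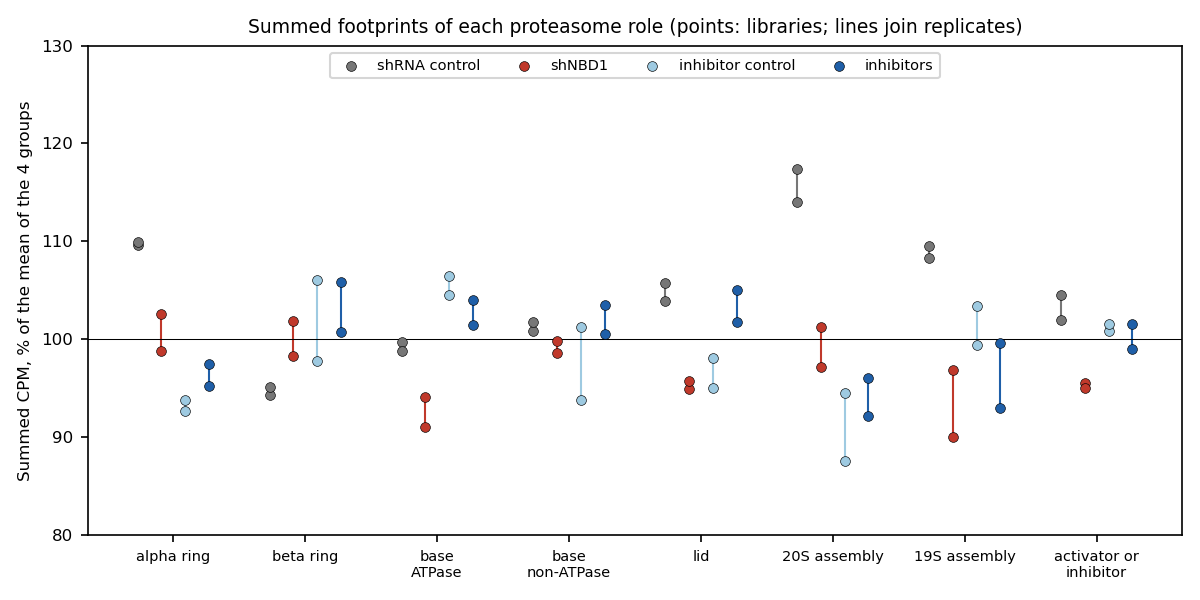
Summed TMM-scaled CPM of each role as a percentage of the mean of the 4 groups (y axis, which does not start at 0), by role (x axis), with a point for each library and a line joining the 2 replicates of a group. With shNBD1 the alpha ring, ATPases, lid and 20S assembly factors lie below the shRNA control and the beta ring above it.

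Promoter windows from RefSeq (GRCh38.p14, 250 bases before to 50 after each start) are shown for 5 of the genes that fell. These 5 also passed in the difference between the treatment effects (given below) and held a shared word. Of the 48 genes 42 matched the table, with 52 windows among 35116 in all. The windows were searched on both strands for 5 words chosen with the results known: CCGGAAG (the core bound by ETS factors), TGACNNNGC and TGAGNNNGC (forms of the antioxidant response core that NFE2L1 binds), CCAAT, and GAAANNGAAA (an interferon response core). In the windows below, capitals mark each match on either strand, and no matches share a base. The POMP window is chr13:28658880-28659179 on the plus strand, that of PSMC1 chr14:90256303-90256602 on the plus strand and that of PSMC6 chr14:52706950-52707249 on the plus strand. The PSMD12 window is chr17:67366528-67366827 on the minus strand and that of PSMD6 chr3:64023445-64023744 on the minus strand.
POMP: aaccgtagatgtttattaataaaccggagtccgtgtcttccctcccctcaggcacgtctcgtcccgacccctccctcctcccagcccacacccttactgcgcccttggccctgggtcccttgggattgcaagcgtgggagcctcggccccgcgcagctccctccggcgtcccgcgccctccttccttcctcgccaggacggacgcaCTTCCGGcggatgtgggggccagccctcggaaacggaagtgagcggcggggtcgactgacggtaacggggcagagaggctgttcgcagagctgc
PSMC1: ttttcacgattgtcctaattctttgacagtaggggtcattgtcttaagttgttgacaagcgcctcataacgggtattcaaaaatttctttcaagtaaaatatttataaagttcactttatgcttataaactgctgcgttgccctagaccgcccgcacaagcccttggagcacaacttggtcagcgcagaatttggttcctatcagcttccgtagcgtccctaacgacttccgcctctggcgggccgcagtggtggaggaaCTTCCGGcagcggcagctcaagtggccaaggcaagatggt
PSMC6: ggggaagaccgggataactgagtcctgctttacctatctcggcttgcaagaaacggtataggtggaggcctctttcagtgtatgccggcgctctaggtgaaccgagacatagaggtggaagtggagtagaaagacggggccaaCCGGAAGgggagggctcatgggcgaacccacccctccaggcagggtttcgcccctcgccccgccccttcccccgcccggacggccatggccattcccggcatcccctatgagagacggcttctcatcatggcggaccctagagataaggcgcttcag
PSMD12: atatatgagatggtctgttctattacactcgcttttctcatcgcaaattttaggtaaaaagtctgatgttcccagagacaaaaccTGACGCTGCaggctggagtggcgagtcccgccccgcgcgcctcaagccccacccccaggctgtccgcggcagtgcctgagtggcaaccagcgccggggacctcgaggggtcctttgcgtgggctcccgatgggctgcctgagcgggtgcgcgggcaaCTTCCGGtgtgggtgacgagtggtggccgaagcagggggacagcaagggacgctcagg
PSMD6: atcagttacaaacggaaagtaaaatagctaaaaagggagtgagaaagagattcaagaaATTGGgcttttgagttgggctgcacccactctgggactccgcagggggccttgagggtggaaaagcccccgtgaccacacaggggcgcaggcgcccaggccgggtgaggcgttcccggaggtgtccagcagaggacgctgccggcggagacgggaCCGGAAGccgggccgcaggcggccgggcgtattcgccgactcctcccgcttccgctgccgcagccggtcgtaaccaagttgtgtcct
These 5 were chosen in part for CCGGAAG, so its presence in each, as itself or its reverse complement, is no result. TGACNNNGC lies also in PSMD12 and CCAAT (as its reverse complement) in PSMD6. PSMA1, PSMD1 and PSMD10 fell too, but their windows did not hold CCGGAAG and are not shown. PSMA6 and PSME4 fell and held CCGGAAG, but did not pass in that difference between the treatment effects and are not shown.

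Over all members, CCGGAAG was in 28.8% of the 52 windows, beside 10.3% of all 35116 windows. By gene it was in 7 of the 10 that fell, PSMA6 and PSME4 being the other ones, and in 8 of the 32 others that matched. CCAAT lay the other way, in 2 of the 10 and 18 of the 32. TGACNNNGC was in 30.8% of member windows and 13.3% of all, and TGAGNNNGC in 26.9% and 18.3%. Of the genes that fell, 3 of 10 held TGACNNNGC (PSMD1, PSMD12 and PSME4), beside 12 of the 32 others, and 2 held TGAGNNNGC (PSMD1 and PSME4), beside 11. CCAAT was in 40.4% of member windows and 34.6% of all. GAAANNGAAA was in 13.5% of member windows and 3.57% of all, and in 0 of the 10 genes that fell and 7 of the 32 others. Member windows were also richer in G and C, with a median of 62.5% beside 58.7%. These are matches of letters and not sites shown to be bound.

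The count of 10 rested on having both replicates. Without shRNA control replicate 1 or without shNBD1 replicate 2, no member passed, while 1.96% and 2.17% of all genes were called lower. Without shRNA control replicate 2 POMP alone was called, beside 2.66% of all genes, and without shNBD1 replicate 1 POMP, PSMC1 and PSMC6 were, beside 3.57%. With only the 4 libraries of the shRNA arm in the fit, 18 of 46 tested members were lower, beside 20.4% of all genes, and 4 were higher (ADRM1, PSMB5, PSMB6 and PSMG4), beside 21.5%. Each of the 10 kept its sign in all 17 alternatives. Reads of near-identical copies are a further limit, since 21 members have pseudogenes in RefSeq, among them PSMC1 with 13, PSMA6 with 4, and PSMC6 and PSMD10 with 3 each, and how multi-mapping reads were counted is not given.

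Of 12 proteins that bind or modify the proteasome but lie outside the naming rule, 3 fell with shNBD1 and none rose. The shares were 25.0% and 0%, beside 9.15% and 9.18% of all genes. All 12 had a log2 fold change below zero, beside 6630 of all 13306 genes tested, with a median of -0.18. UCHL5, the deubiquitinase held by ADRM1, stood at 54.9 and 54.8 CPM in the shRNA control and 43.9 and 39.9 CPM with shNBD1 (-0.39 ± 0.08, adjusted p = 0.00854). PITHD1 stood at 60.1 and 55.6 CPM in the shRNA control and 46.9 and 48.3 CPM with shNBD1 (-0.28 ± 0.08, adjusted p = 0.0336). TXNL1, a thioredoxin-like protein of the 19S particle, stood at 107 and 105 CPM in the shRNA control and 92.8 and 83.4 CPM with shNBD1 (-0.27 ± 0.07, adjusted p = 0.0304). For all 3 each shNBD1 library lay below each control. DESeq2 called 1 of the 12 lower, beside 6.29% of all genes.

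Of all genes tested, 9.18% were called higher with shNBD1 and 9.15% lower. Beside these shares, 2 of 10 tested genes of the NFE2L1 list rose and none fell. That list holds the factor, its relatives, its processing enzymes and its MAF partners. The 2 that rose were MAFK, a small MAF partner, at 5.51 and 3.93 CPM in the shRNA control and 13.9 and 16.2 CPM with shNBD1 (1.65 ± 0.31, adjusted p = 0.00559), and NFE2L3, a relative of NFE2L1, at 11.6 and 11.0 CPM in the shRNA control and 16.6 and 15.4 CPM with shNBD1 (0.50 ± 0.11, adjusted p = 0.0117). NFE2L1 itself was at 176 and 175 CPM in the shRNA control and 183 and 182 CPM with shNBD1 (0.05 ± 0.06, adjusted p = 0.585), and DDI2, the protease that activates it, had a log2 fold change of -0.04. Of 13 ubiquitin genes and ubiquitin-activating or -conjugating enzymes, 1 rose and 1 fell, 7.69% each way beside 9.18% and 9.15% of all genes. RPS27A, which encodes ubiquitin fused to a ribosomal protein, rose (0.42 ± 0.09, adjusted p = 0.0118), and UBE2D3, a conjugating enzyme, fell (-0.30 ± 0.07, adjusted p = 0.0181). Of 13 tested shuttles and cofactors of the unfoldase VCP, UFD1 (-0.22 ± 0.06, adjusted p = 0.0365) and UBXN4 (-0.31 ± 0.08, adjusted p = 0.0235) fell and none rose. The share that fell was 15.4%, beside 9.15% of all genes. Of 8 tested genes of aggregate clearance, 2 rose (25.0%, beside 9.18% of all genes), BAG3 (0.36 ± 0.11, adjusted p = 0.0421) and MAP1LC3B (0.29 ± 0.07, adjusted p = 0.0196). Leaving out one library of the shRNA arm took these counts, and those of the bound proteins, to 0 or 1 in each list.

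With the miRNA inhibitors no proteasome gene passed the threshold in the edgeR fit of all 8 libraries by group. Of 47 tested, 0 were called higher, beside 0.0376% of all genes, and 0 lower, beside 0.0827%. DESeq2 called 1 lower (PSMC2), beside 0.594% of all genes. Of the 47, 8 had an unadjusted p below 0.05, beside 2183 of all 13306 genes tested. Of the 8, 6 were above zero and 2 below. The median log2 fold change was 0.04, with 29 genes above zero and 18 below, and the 47 values ran from -0.38 for PSMC2 to 0.42 for PSMB10. PSMC2, an ATPase of the base, stood at 567 and 481 CPM in the inhibitor control and 441 and 361 CPM with the inhibitors (-0.38 ± 0.10, adjusted p = 0.136). Both treated libraries lay below both controls, and the replicates were themselves far apart. It was called lower without inhibitor control replicate 2 and without inhibitors replicate 1, and the median of the 47 was then 0.068 and 0.059. ADRM1 stood at 229 and 303 CPM in the inhibitor control and 303 and 364 CPM with the inhibitors (0.33 ± 0.13, adjusted p = 0.241), with the lower treated library just below the higher control. PSMG3 stood at 13.0 and 15.9 CPM in the inhibitor control and 15.6 and 21.6 CPM with the inhibitors, also overlapping (0.35 ± 0.17, adjusted p = 0.328).

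None of the genes that fell with shNBD1 was called with the inhibitors in the edgeR fit of all 8 libraries by group. POMP stood at 109.9 and 112 CPM in the inhibitor control and 118 and 109 CPM with the inhibitors (0.03 ± 0.07, adjusted p = 0.881). PSMC6 stood at 141 and 132 CPM in the inhibitor control and 158 and 143 CPM with the inhibitors (0.14 ± 0.09, adjusted p = 0.419), and PSMD6 at 129 and 139 CPM in the inhibitor control and 142 and 155 CPM with the inhibitors (0.15 ± 0.07, adjusted p = 0.342). For POMP the groups overlapped, while for PSMC6 and PSMD6 both treated libraries lay above both controls, without passing. The catalytic subunits PSMB5, PSMB6 and PSMB7 had log2 fold changes of 0.05, 0.01 and -0.01, all with overlapping groups. The assembly factors PSMG1, PSMG2 and PSMG4 had values of 0.01, 0.11 and -0.09. By role, summed footprints changed by 7.08% in the lid and 3.37% in the alpha ring and by -2.62% in the ATPases. In the 6 pathway lists edgeR called no gene in either direction, and DESeq2 called 1 bound protein lower, beside 0.594% of all genes. Unadjusted p-values below 0.05 numbered 4 of 12 among the bound proteins and 3 of 13 among the ubiquitin genes. They numbered 0 to 3 in the remaining lists, beside 2183 of 13306 over all genes. The bound protein of smallest p was SEM1, a small lid subunit, at 179 and 167 CPM in the inhibitor control and 140.3 and 127 CPM with the inhibitors (-0.37 ± 0.08, adjusted p = 0.0942), which was the one that DESeq2 called, followed by UCHL5 (0.21). The log2 fold changes of the 2 genes of smallest p in the other lists were 0.59 for MAFG and 1.46 for MAFF, 0.26 for RPS27A and -0.17 for UBB, -0.15 for UFD1 and -0.16 for UBQLN4, 0.45 for TAP2 and 0.57 for NLRC5, and 0.34 for BAG3 and 0.36 for SQSTM1, with adjusted p-values from 0.185 to 0.4.

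The difference between the treatment effects (the hairpin effect minus the inhibitor effect), which uses all 4 groups, was tested directly. It was below zero past the threshold for 8 of 47 members, 17.0% beside 3.96% of all genes, and above zero for 0, beside 3.48%. DESeq2 gave 6 and 0, beside 2.88% and 2.65% of all genes. An unadjusted p below 0.05 was found for 14 members, beside 3254 of all 13306 genes tested. The median difference was -0.13 over the members and 0.003 over all genes. It was -0.023 without inhibitors replicate 2, beside 0.035 over all genes, and -0.050 without inhibitor control replicate 1, beside 0.021. PSMC6 differed by -0.52 ± 0.12, adjusted p = 0.0276, from effects of -0.38 with the hairpin and 0.14 with the inhibitors. PSMD6 differed by -0.51 ± 0.10, adjusted p = 0.0169, and PSMD12 by -0.50 ± 0.09, adjusted p = 0.0101, the latter from effects of -0.28 and 0.23. The other 5 were POMP, PSMA1, PSMC1, PSMD1 and the lid subunit PSMD13, between -0.37 and -0.41. PSMD13 was called in neither arm alone, at 115 and 114 CPM in the shRNA control and 104 and 101 CPM with shNBD1 in the one and 118 and 121 CPM in the inhibitor control and 135 and 141 CPM with the inhibitors in the other. Its hairpin libraries lay below their controls and its inhibitor libraries above theirs. In all, 19 members lay below zero with shNBD1 and above zero with the inhibitors, 13 below in both, 10 above in both and 5 the other way round. The count of 8 went to 0 without shRNA control replicate 1, shRNA control replicate 2 or shNBD1 replicate 2, where 0.774%, 0.869% and 0.803% of all genes were below zero past the threshold. It went to 2 without shNBD1 replicate 1, beside 1.33% of all genes, and without TMM scaling, beside 2.65%. It went to 5 without inhibitor control replicate 1, beside 3.70%, and to 4 without inhibitors replicate 1, beside 4.06%. Among the bound proteins the difference passed for 1 of 12, UCHL5 (-0.60 ± 0.11, adjusted p = 0.0132), and for UBE2D3 (-0.40 ± 0.10, adjusted p = 0.0393), MAP1LC3B (0.41 ± 0.10, adjusted p = 0.0348) and ERAP1, an aminopeptidase that trims antigenic peptides (0.52 ± 0.13, adjusted p = 0.0403), in their lists.

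The 2 control groups also differed from each other, which bears on any level set across the arms. In the shRNA control 9 of 47 members were higher than in the inhibitor control, 19.1% beside 13.5% of all genes, and 6 were lower, 12.8% beside 13.6%. Both comparisons of treatments share these libraries. Of the 9, PSMA4 stood at 609 and 621 CPM in the shRNA control and 430.4 and 406 CPM in the inhibitor control (0.56 ± 0.07, adjusted p = 0.00049), POMP at 169 and 162 CPM in the shRNA control and 109.9 and 112 CPM in the inhibitor control (0.57 ± 0.07, adjusted p = 0.000465) and PSMG2 at 79.5 and 75.8 CPM in the shRNA control and 54.3 and 55.6 CPM in the inhibitor control (0.50 ± 0.08, adjusted p = 0.00219). PSMD11, PSMD6, PSMD12, PSME4, PSMA3 and PSMA1 had log2 fold changes from 0.41 to 0.29. For POMP the shNBD1 libraries, at 132 and 121 CPM, lay between the 2 controls. POMP, PSMA1, PSMD6, PSMD12 and PSME4 are both among these 9 and among the genes that fell with shNBD1. For every gene that fell with shNBD1, both shRNA control libraries lay above both inhibitor control libraries. Members that were not called lower with shNBD1 showed this order too, among them PSMA3, PSMA4, PSMA7, PSMC4, PSMC5, PSMD4, PSMD11 and PSMG4. The share of all genes with this order was not taken. The same 2 shRNA control libraries enter both comparisons, and their part in the decreases was not tested. PSMC3IP, no proteasome protein, was higher too (0.87 ± 0.11, adjusted p = 0.000418).

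The 6 lower members include PSMB8, which passed the filter on low counts only through the inhibitor arm. PSMB7 had the smallest p of them, at 169 and 178 CPM in the shRNA control and 260.4 and 274 CPM in the inhibitor control (-0.62 ± 0.07, adjusted p = 0.000203). Its values with shNBD1, 170.4 and 163 CPM, and with the inhibitors, 259.7 and 271 CPM, lay near those of their own controls. PSMC2 stood at 355 and 349 CPM in the shRNA control and 567 and 481 CPM in the inhibitor control (-0.58 ± 0.10, adjusted p = 0.00289). PSMC3 (-0.22 ± 0.07, adjusted p = 0.0291) and PSMD9 (-0.24 ± 0.08, adjusted p = 0.0479) were lower by less. PSMB7 and PSMC2 were called lower in all 17 alternatives, while the PSMC3 call was lost in 7 of them and the PSMD9 call in 10. DESeq2 called 4 members lower, without PSMC3 and PSMD9, beside 8.69% of all genes. The PSMC3 call was lost with any 1 library of the shRNA control, shNBD1 or the inhibitor control left out, and so was that of PSMD9. The count of higher members was 4 without shRNA control replicate 1, beside 3.75% of all genes. That of lower ones was 3 without shRNA control replicate 2 or inhibitor control replicate 1, beside 4.85% and 12.3%. No other beta subunit of the standard core was called between the controls. Of the 12 bound proteins, 6 were higher in the shRNA control and 1 lower, with UBLCP1 (0.63 ± 0.09, adjusted p = 0.000775), PITHD1 (0.55 ± 0.08, adjusted p = 0.00101), UCHL5 (0.53 ± 0.08, adjusted p = 0.00124) and AKIRIN2 (0.54 ± 0.09, adjusted p = 0.00228) having the smallest p. The ubiquitin list had 4 higher and 3 lower of 13 tested, and the shuttles 3 and 5 of 13. The NFE2L1 list had 1 and 1 of 10, and the clearance list 1 and 0 of 8. Beside these counts and those of the bound proteins, 13.5% of all genes were higher in the shRNA control and 13.6% lower.

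**Figure D4:**
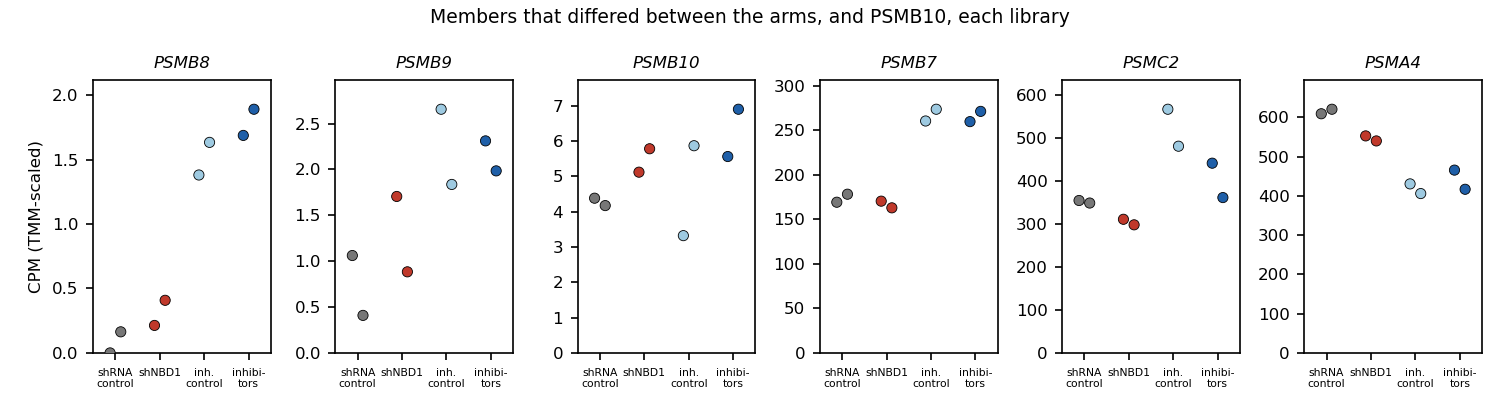
TMM-scaled CPM (y axis, from 0, a scale for each gene) of 6 proteasome genes in each of the 8 libraries (points), by group (x axis). PSMB8, PSMB9 and PSMB7 are low in the shRNA arm, PSMB10 overlaps between arms, PSMC2 spreads widely in the inhibitor arm and PSMA4 is highest in the shRNA control.

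PSMB8, PSMB9 and PSMB10 are the inducible catalytic subunits that replace PSMB5, PSMB6 and PSMB7, in that order, in the immunoproteasome, which shapes peptides for antigen presentation. All were sparse here. PSMB8 had 2 reads in the shRNA control and 59 in the inhibitor control, or 0 and 0.164 CPM against 1.38 and 1.63 CPM. The count relative to total reads was 20.4 times as high in the inhibitor control, with a 95% exact interval of 5.40 to 172 for counting error only. PSMB8 passed the filter on low counts through the inhibitor arm alone, where it is high, and it was not tested when the shRNA arm was fitted by itself, so its call between the controls is no support and only its counts are given. PSMB9 had 21 and 88 reads, 1.06 and 0.409 CPM against 2.66 and 1.84 CPM, a ratio of 2.89 with an interval of 1.78 to 4.91 (adjusted p = 0.023). PSMB10 had 117 and 180 reads, 4.38 and 4.17 CPM against 3.32 and 5.87 CPM, a ratio of 1.06 with an interval of 0.837 to 1.35 and overlapping groups. PSMB9 thus passed the test between the controls and PSMB10 did not. Counts of PSMB8 and PSMB9 were each summed over 8 features, which carry the same symbol under different gene IDs, so how reads were shared among them is uncertain. The PSMB9 call was lost without shRNA control replicate 2 and without inhibitor control replicate 1.

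Within the arms the inducible subunits passed no test in the edgeR fit of all 8 libraries by group. PSMB8 had 2 reads in the shRNA control and 9 with shNBD1, a ratio of 4.18 with an interval of 0.866 to 39.8 (adjusted p = 0.173). PSMB9 had 21 and 37 reads, a ratio of 1.64 with an interval of 0.934 to 2.94, and PSMB10 117 and 157, a ratio of 1.25 with an interval of 0.975 to 1.60. With the inhibitors PSMB8 had 47 reads beside 59 in the control (ratio 1.15, interval 0.770 to 1.72), PSMB9 58 beside 88 (0.955, 0.673 to 1.35) and PSMB10 162 beside 180 (1.30, 1.05 to 1.62). The PSMB10 interval lies above 1, but its replicates spread further than counting error, from 3.32 and 5.87 CPM to 5.56 and 6.90 CPM, and its adjusted p was 0.414. The promoter of PSMB8 (chr6:32843998-32844297 on the minus strand, RefSeq, GRCh38.p14) is shown because it holds the word GAAANNGAAA, in capitals as its reverse complement.
PSMB8: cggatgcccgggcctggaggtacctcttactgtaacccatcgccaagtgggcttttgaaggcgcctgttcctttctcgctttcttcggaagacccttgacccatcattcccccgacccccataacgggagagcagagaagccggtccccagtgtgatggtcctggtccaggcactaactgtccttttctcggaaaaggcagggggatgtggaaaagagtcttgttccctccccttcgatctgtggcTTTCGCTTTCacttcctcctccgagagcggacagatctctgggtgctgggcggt
The 7 members with this word were PSMA4, PSMB4, PSMB8, PSMB10, PSME1, PSME2 and PSMG4. The PSMB9 window did not hold it.

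Genes of the pathway that loads and presents the peptides differed between the controls as well. Of 12 antigen presentation genes, 8 were lower in the shRNA control than in the inhibitor control and none was higher by edgeR. The shares were 66.7% and 0%, beside 13.6% and 13.5% of all genes, and the median log2 fold change was -0.48. DESeq2 also called 8 lower and 0 higher, beside 8.69% and 9.27% of all genes. Class I HLA genes are near-identical copies of each other, so their counts are uncertain. HLA-B, a peptide-presenting class I chain, stood at 278 and 276 CPM in the shRNA control and 446 and 478 CPM in the inhibitor control (-0.74 ± 0.07, adjusted p = 7.94e-05), and TAP1, a subunit of the peptide transporter, at 50.5 and 51.4 CPM in the shRNA control and 69.2 and 70.4 CPM in the inhibitor control (-0.46 ± 0.07, adjusted p = 0.00178). The 8 became 4 without either library of the shRNA control. With shNBD1 5 of the 12 rose and 1 fell, 41.7% and 8.33% beside 9.18% and 9.15% of all genes. HLA-C stood at 557 and 542 CPM in the shRNA control and 739 and 806 CPM with shNBD1 (0.49 ± 0.09, adjusted p = 0.00448). TAPBP stood at 23.8 and 24.5 CPM in the shRNA control and 32.6 and 35.4 CPM with shNBD1 (0.49 ± 0.09, adjusted p = 0.00455). HLA-B also rose (0.30 ± 0.07, adjusted p = 0.0118), and TAP1 fell (-0.37 ± 0.08, adjusted p = 0.00877). These counts went to 0, or to 2 higher, without single libraries of the shRNA arm. The summed level of 5 leukocyte markers was 38.2 to 38.5 CPM in the shRNA control, 26.5 to 27.2 with shNBD1, 12.0 to 15.4 in the inhibitor control and 10.9 to 12.9 with the inhibitors. CD68, a lysosomal protein of macrophages, made up nearly all of it, all 5 markers had some reads, and the other 4 were too low to be tested. The summed level of 2 smooth muscle markers, ACTA2 for the most part, was 304 to 334 CPM in the shRNA control, 371 to 373 with shNBD1, 522 to 549 in the inhibitor control and 426 to 454 with the inhibitors. The part of either list in these results was not tested.

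Footprint ratios were taken for 7 pairs of proteins that bind each other in the particle or on the way to it. The ratio of PSMC1 to PSMC2, ATPases that pair during assembly, was 0.656 to 0.677 in the shRNA control and 0.610 to 0.629 with shNBD1, but 0.371 to 0.427 in the inhibitor control and 0.511 to 0.607 with the inhibitors. That of PSMC6 to PSMC3 was 0.470 to 0.472 in the shRNA control and 0.352 to 0.396 with shNBD1, and 0.355 to 0.382 and 0.341 to 0.406 in the inhibitor arm. PSME1 to PSME2, the PA28 pair, was at 1.84 to 1.89 and 1.78 to 1.88 in the shRNA arm and at 1.61 to 1.62 and 1.38 to 1.46 in the inhibitor arm. The lid's PSMD14 to PSMD7 ratio overlapped between the shRNA control, shNBD1 and the inhibitor control, at 0.435 to 0.498, and was 0.385 to 0.409 with the inhibitors. PSMC4 to PSMC5, the remaining ATPase pair, was at 0.890 to 0.893 in the shRNA control, 0.818 to 0.839 with shNBD1, 0.841 to 0.880 in the inhibitor control and 0.761 to 0.799 with the inhibitors. PSMG1 to PSMG2 was at 1.25 to 1.31 and 1.10 to 1.30 in the shRNA arm and at 1.63 to 1.89 and 1.51 to 1.80 in the inhibitor arm. PSMG3 to PSMG4 overlapped between the shRNA control, shNBD1 and the inhibitor control, at 0.555 to 0.684, and was 0.769 to 0.908 with the inhibitors. These ratios are not divided by coding length, so only their change between groups can be read, and they carry no test.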

How the data were processed

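Ribosome footprints were counted in 8 libraries of 293T cells. Per the labels' protocols, cells were lysed with cycloheximide and libraries made with a modified commercial ribosome profiling kit. The GRCh38 build and the tools cutadapt and Bowtie are named in the submitters' processing notes; versions, the counting tool and the handling of multi-mapping reads were not given in the sources used here. Raw counts were deposited by the authors as whole numbers for each feature with at least 1 read, and an unlisted feature was taken as 0. The 18037 features were summed to 17179 gene symbols. Total counts ranged from 11218980 to 19854218, and intervals cover counting error only, not amplification.

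Low genes were removed by filterByExpr at its minimum count of 10 and minimum total of 15, and the rest were scaled by TMM and fitted with edgeR 4.0.16 (limma 3.58.1, R 4.3.3) by quasi-likelihood over all 8 libraries with group as the only term, which left 4 residual degrees of freedom. Benjamini-Hochberg adjustment covered all 13306 tested genes, the threshold was 0.05, and SEs are those implied by the test. The common BCV (biological coefficient of variation) was 0.0753. Count ratios of sparse genes have exact binomial (Clopper-Pearson) intervals. The alternatives were DESeq2 1.42.0, other scalings and filters, a replicate block, only the groups compared, leaving out each library, and, chosen after the data were seen, leaving out 2 libraries together. The steps were tested on simulated data. Of genes changed 1.25-fold, 24% were recovered for shNBD1 and 14% for the inhibitors. Of those changed 1.5-fold, 72% and 84% were recovered. A gene that was not called can thus still have changed by a small amount.

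The members and lists were chosen with earlier results of these data known. Named with values were members past the threshold (at most 10 of smallest p in each direction), the catalytic subunits and their inducible counterparts, the assembly factors and ADRM1. In each list up to 4 genes past the threshold were named, or otherwise 2 of smallest p. Other values were chosen after they were seen. A planned footprint density by role was not run, since coding lengths were not used here. The labels give no pairing of replicates.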

Additional observations from a re-analysis of the deposited data

Results flagged for a closer look

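For 8 proteasome genes the effect of shNBD1 differed from that of the miRNA inhibitors in the test of the difference itself (edgeR quasi-likelihood, adjusted over 13306 genes). The hairpin effect minus the inhibitor effect, on the log2 scale, was -0.523 for PSMC6, -0.51 for PSMD6, -0.502 for PSMD12, -0.413 for POMP, -0.411 for PSMC1, -0.402 for PSMA1, -0.385 for PSMD1 and -0.368 for PSMD13. In 7 of the 8, all but POMP, both inhibitor libraries lay above both of their controls and both hairpin libraries below theirs. The 8 were chosen by this difference in the same libraries, so this order is no further support for it. Adjusted p-values ran from 0.0101 for PSMD12 to 0.0385 for PSMD13. None of the 8 passed without shRNA control replicate 1, shRNA control replicate 2 or shNBD1 replicate 2, and 2 (PSMC6 and PSMD12) passed without shNBD1 replicate 1.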

How the results depend on the processing

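No gene called in the report changed sign under any alternative that tested it. For shNBD1, members called lower numbered 0 to 12 with 1 library left out (1.96% to 10.9% of all genes) and those called higher 0 to 2 (1.96% to 11.5%). With only the groups compared they were 18 and 4 (20.4% and 21.5% of all genes), and with inhibitor control replicate 1 and inhibitors replicate 2 both left out (chosen after seeing the data) 18 and 4, or 38.3% and 8.51% of the members beside 19.1% and 20% of all genes. Their median was -0.108 without TMM scaling, beside -0.027 over all genes. In that setting the all-gene median of the inhibitor comparison was -0.025. For the inhibitors, 1 member was lower with DESeq2 (0.594% of all genes) and with no filter (0.611%), and 1 higher with both libraries left out (1.70%). With 1 library left out, 0 to 2 were higher and 0 to 1 lower (up to 3.65% and 3.22% of all genes), and the median ran from 0.028 to 0.068; it was 0.003 without scaling. For the difference, members lower were 2 without scaling (2.65% of all genes), 0 to 8 with 1 library left out (0.774% to 4.06%) and 14, with 4 higher, without both libraries, or 29.8% and 8.51% of the members beside 13.6% and 14.2% of all genes. Its median was -0.108 with no filter, -0.028 without both libraries, and from -0.143 to -0.023 with 1 library left out. Between the controls, 4 to 10 were higher (3.75% to 15.7% of all genes) and 3 to 8 lower (4.19% to 16.2%) with 1 library left out, and 14 and 10 without both, or 29.8% and 21.3% of the members beside 21.0% and 21.2% of all genes. That median was 0.015 with the stricter filter (mean count 50 or more), -0.016 without both libraries, and from -0.015 to 0.045 with 1 library left out. The cause was not tested.

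The replicate number as a block within each arm gave 4 members higher and 17 lower for shNBD1, beside 18.9% and 18.7% of all genes. For the inhibitors it gave 9 higher (ADRM1, PSMA1, PSMA3, PSMD3, PSMD6, PSMD7, PSMD12, PSMD13 and PSMG3) and 2 lower (PSMC2 and PSME1), where the fit without the block gave 0 and 0, beside 10.6% and 8.36% of all genes. For the difference it gave 1 and 16, beside 12.3% and 13.2%, and between the controls 15 and 8, beside 24% and 22.3%. Deviations of same-numbered libraries correlated by 0.0406 in the shRNA arm and 0.608 in the inhibitor arm over 10909 genes, and the labels name no source that same-numbered libraries share, so whether the numbers pair them is not known. The planned density by role and its 2 alternatives were not run. Depth limits the inducible subunits, above all PSMB8 with 2 reads in the shRNA control.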
